A study of Homo sapiens with 4 samples.

Results

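The 7 genes described here are markers of muscle, connective tissue and blood formation: ACTA2, TAGLN, ACTC, KIAA0992, COL1A1, COL2A1 and RUNX1. Each is read by 1 probe, and the probes were chosen by identifier out of the 47293 on each array, with no threshold applied here to measured values. The choice was made with earlier results of these data known, and all 7 are in the study's own listing of changed probes. That all 7 move is therefore not independent evidence. Of the 7, all passed the detection filter that left 13179 probes for testing. ACTA2, ACTC, COL1A1, COL2A1 and RUNX1 were detected on at most 1 mock array each and entered the test through the groups in which they were bright, so counts over the 7 genes are descriptions.

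The cells were NCCIT, an established human embryonal carcinoma (hEC) line, which was transfected with enzymatically prepared short interfering RNA (esiRNA) against OCT4, NANOG or SOX2, or received the transfection reagent alone (mock). In all 4 groups the cells grew in high-glucose DMEM with 10% foetal calf serum and 2 mM glutamine plus antibiotics and, per the labels, were seeded at 70000 per cm2, received fresh medium on the next day and were harvested on day 2.5, while the methods text differs on density and day. Labelled cRNA made from 300 ng of total RNA was hybridised to Illumina BeadChips, with 3 arrays per group that the labels describe as biological replicates. The 12 arrays come from a single cell line, and their number limits the precision of every value.

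Smooth muscle cells contract through actin and myosin filaments and carry alpha smooth muscle actin (ACTA2) and the actin-binding protein transgelin (TAGLN), while the embryonic heart makes cardiac alpha actin (ACTC, now ACTC1). Serum response factor (SRF), which binds the CArG box in DNA, is a textbook regulator of such contractile genes, and palladin (KIAA0992, now PALLD) is a scaffold that bundles actin filaments. Fibrillar collagens form the matrix of bone, skin and tendon (COL1A1) and of cartilage (COL2A1), and RUNX1 is a transcription factor needed for definitive blood formation.

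The brightness of the arrays moved with the groups. Median raw intensity was 97.5 to 104.7 in mock, 115.9 to 124.2 with OCT4 silenced, 102.5 to 108.7 with NANOG silenced and 109.1 to 115.2 with SOX2 silenced. A probe was called detected where its deposited detection score was above 0.99, which held for 11196 to 11710 probes on the mock arrays, 12611 to 12858 in the OCT4 knock-down, 11644 to 12270 in the NANOG knock-down and 11841 to 12136 in the SOX2 knock-down. Values below are intensities after background correction and quantile normalisation, and the same results under median scaling are given after the comparisons.

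The targeted genes were read first as a check of the labels. POU5F1, which encodes OCT4, had normalised intensities of 669, 557 and 612 in mock and of 39.8, 34.3 and 26.6 in the OCT4 knock-down, where 1 of 3 arrays detected it. This is at least a 16.2-fold lower level (adjusted p = 1.51e-10, limma with Benjamini-Hochberg adjustment). NANOG read 343, 363 and 320.4 in mock and 101, 89.8 and 94.9 in its own knock-down, a fall by 1.85 on the log2 scale (adjusted p = 2.13e-07), and no array of the OCT4 or SOX2 knock-down detected it. POU5F1 read 446, 438 and 488 with NANOG silenced, a log2 change of -0.42 that was not called (adjusted p = 0.0318), and was not detected with SOX2 silenced. SOX2 itself was not analysed here, so its own label has no such check.

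A call required an adjusted p under 0.01 and a change of at least 1.5-fold. With OCT4 silenced, 7 of the 7 genes were called up against mock, where 12.9% of the tested probes were called up. With SOX2 silenced, 7 of 7 were likewise called up, against 12.6% of the tested probes. With NANOG silenced, TAGLN and KIAA0992 were called up and the other 5 genes were not called, against 4.29% called up. These 3 comparisons share the mock arrays. In RNA from whole cultures, a larger share of cells that express a gene and more of its RNA per cell cannot be told apart. A group in which fewer than 3 arrays detected a probe is called dim, and a fold against it is written as a lower bound. The bound sets the mean of the bright group against, for each dim array, the higher of the probe's own signal and the lowest signal of any detected probe. No fold is given where both groups were dim. Every fold and bound depends on the constant added to the intensities before the logarithm, 16 here, and the values for the 7 genes with 50 added are given beside them; those of other genes and of the targets were not recomputed and hold at 16.

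**Figure D1:**
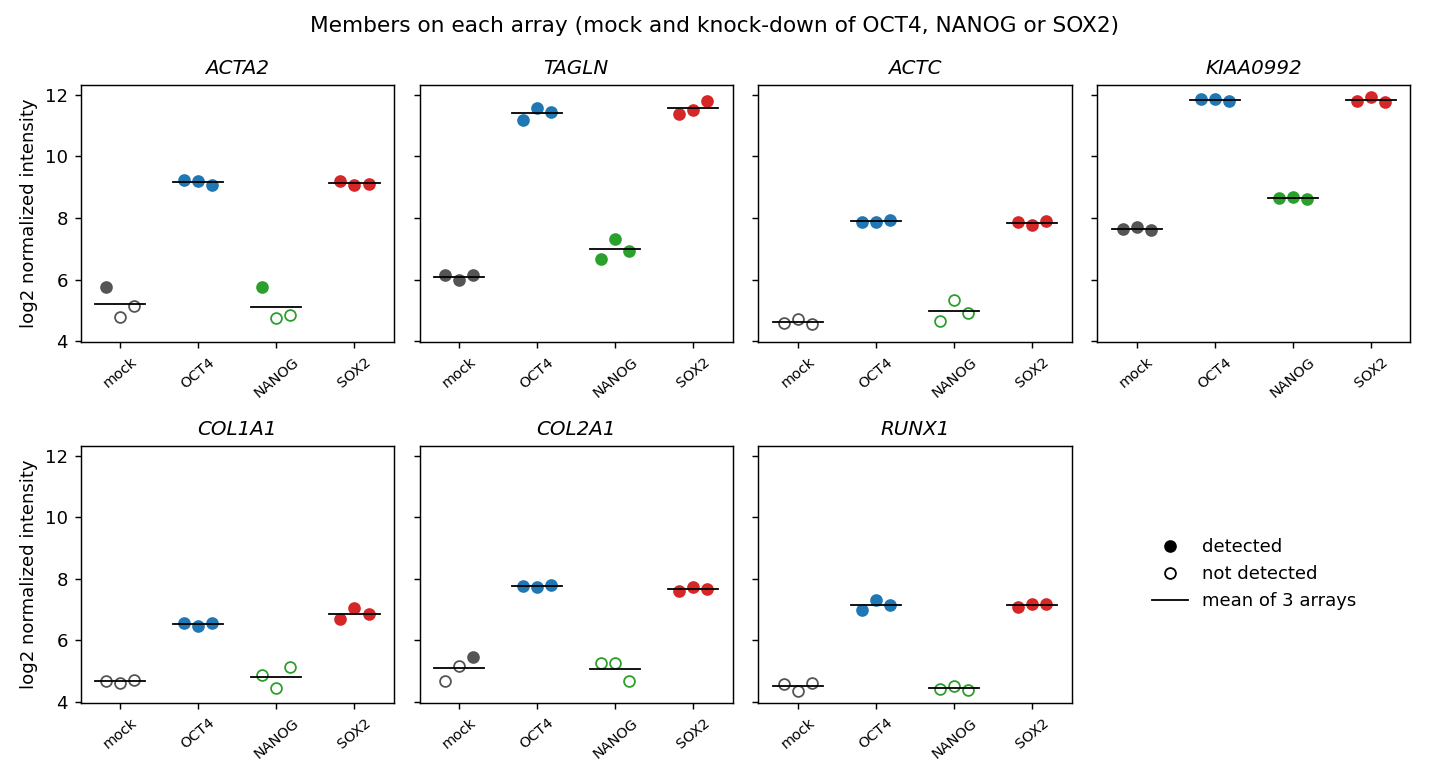
Log2 normalised intensity (vertical axis) of each of the 7 genes on each of the 12 arrays, grouped along the horizontal axis as mock and knock-down of OCT4, NANOG or SOX2. Filled points are detected, open points are not, and lines are means of 3 arrays; in every panel the OCT4 and SOX2 points lie above the mock and NANOG points.

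ACTA2, the actin of smooth muscle and of myofibroblasts, had normalised intensities of 53.7, 27.5 and 35.1 in mock and 53.7, 26.7 and 29.0 in the NANOG knock-down. The values were 607, 583 and 539.9 in the OCT4 knock-down and 585, 538 and 555 in the SOX2 knock-down. Mock and NANOG arrays overlapped at the level of background, with 1 of 3 arrays detecting the probe in each, and the OCT4 and SOX2 arrays overlapped with each other far above them. Against mock, ACTA2 rose at least 14.3-fold with OCT4 silenced (adjusted p = 1.06e-07) and at least 13.85-fold with SOX2 silenced (adjusted p = 1.13e-07). With the larger constant the bounds were 8.13-fold and 7.91-fold. The RefSeq start-site windows, which run from 250 bases before to 50 bases after an annotated transcription start, were read for each of the 7 genes that had one. These were ACTA2, ACTC, KIAA0992 and RUNX1. The first ACTA2 window lies on the minus strand of GRCh38.p14 at chr10:88952724-88953023. Capitals mark a pair of CArG-like boxes, 121 to 112 and 71 to 62 bases before the start, a CArG box with a single C or G among the 6 A or T letters of its centre:
ACTA2 start 1: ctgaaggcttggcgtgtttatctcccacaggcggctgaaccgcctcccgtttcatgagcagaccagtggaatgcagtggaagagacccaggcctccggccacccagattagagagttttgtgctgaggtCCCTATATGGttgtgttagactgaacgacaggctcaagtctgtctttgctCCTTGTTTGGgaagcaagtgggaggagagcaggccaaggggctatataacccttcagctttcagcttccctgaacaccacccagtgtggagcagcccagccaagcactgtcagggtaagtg

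TAGLN, which encodes the calponin-related protein transgelin of smooth muscle, was detected on all 12 arrays. Its intensities were 71.6, 63.4 and 70.3 in mock (mean 68.4 ± 4.39, SD) and 103, 160.5 and 121.5 in the NANOG knock-down (mean 128 ± 29.5). The OCT4 knock-down arrays read 2300, 3044 and 2793 (mean 2712 ± 378) and the SOX2 knock-down arrays 2653, 2904 and 3554 (mean 3037 ± 465). The order of levels was mock, NANOG knock-down, OCT4 knock-down and SOX2 knock-down, with no overlap between mock and NANOG or between NANOG and OCT4 and with overlap between OCT4 and SOX2. TAGLN rose 39.4-fold with OCT4 silenced (95% interval 30.8 to 50.4, adjusted p = 1.41e-10) and 44.1-fold with SOX2 silenced (34.5 to 56.4, adjusted p = 1.05e-10), or 26.65-fold and 29.8-fold with the larger constant. With NANOG silenced it rose 1.85-fold (1.44 to 2.36, adjusted p = 0.00195), and each NANOG array was above each mock array. The log2 fold change of TAGLN, NANOG knock-down against mock, was 0.88, or 0.65 with 50 added, and its call was lost in a limma fit of only the arrays compared (adjusted p = 0.0107) and gained in strength under median scaling (adjusted p = 2.52e-05). The call was also lost by the methods' t-test, before and after Benjamini-Hochberg adjustment.

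ACTC, the alpha actin of embryonic and adult heart muscle, was not detected on any mock or NANOG knock-down array. Its signals there were 24.0, 26.1 and 23.5 in mock and 25.4, 40.6 and 30.3 with NANOG silenced. The probe read 236, 235 and 243 in the OCT4 knock-down and 235, 217.5 and 237 in the SOX2 knock-down, and these ranges overlapped. ACTC rose at least 6.21-fold with OCT4 silenced (adjusted p = 1.5e-09) and at least 5.98-fold with SOX2 silenced (adjusted p = 1.56e-09), bounds that fell to 3.74-fold and 3.62-fold with 50 added. The third of its RefSeq windows is shown because, among the 9 windows found for 4 of the 7 genes, it alone held a CArG box. It lies on the minus strand of GRCh38.p14 at chr15:34795500-34795799. In order, the capitals mark 3 CArG-like boxes, the CArG box 109 to 100 bases before the start, and the TATA box TATAAA 31 to 26 bases before it:
ACTC start 3: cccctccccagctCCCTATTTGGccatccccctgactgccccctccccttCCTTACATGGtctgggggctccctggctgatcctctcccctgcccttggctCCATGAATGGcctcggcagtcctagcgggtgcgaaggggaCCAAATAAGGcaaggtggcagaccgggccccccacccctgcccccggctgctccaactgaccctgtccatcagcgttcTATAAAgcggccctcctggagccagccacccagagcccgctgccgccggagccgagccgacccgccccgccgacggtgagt

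KIAA0992, which encodes the actin-bundling scaffold palladin, was detected on every array and had the tightest replicates of the 7 genes by its standard error in the fit, 0.0675 on the log2 scale. It read 199, 209.7 and 195 in mock (mean 201 ± 7.73, SD) and 403, 411 and 395 in the NANOG knock-down (mean 403 ± 8.01). The OCT4 knock-down arrays read 3753, 3702 and 3596 (mean 3683 ± 79.9) and the SOX2 knock-down arrays 3561, 3929 and 3470 (mean 3653 ± 243). The levels fell into 3 steps, mock, then NANOG knock-down, then OCT4 and SOX2 knock-down together, and the last 2 groups overlapped. KIAA0992 rose 18.3-fold with OCT4 silenced (95% interval 16.5 to 20.3, adjusted p = 1.83e-12), 18.2-fold with SOX2 silenced (16.4 to 20.1, adjusted p = 1.75e-12) and 2.00-fold with NANOG silenced (1.81 to 2.22, adjusted p = 9.13e-07). With 50 added the first 2 of these were 15.8-fold and 15.7-fold, and the log2 fold change of KIAA0992, NANOG knock-down against mock, went from 1.003 to 0.89. Of its RefSeq windows, the third, on the plus strand of GRCh38.p14 at chr4:168831845-168832144, is shown since it holds TATAAA at the same 31 to 26 bases before the start as the ACTC window, marked in capitals:
KIAA0992 start 3: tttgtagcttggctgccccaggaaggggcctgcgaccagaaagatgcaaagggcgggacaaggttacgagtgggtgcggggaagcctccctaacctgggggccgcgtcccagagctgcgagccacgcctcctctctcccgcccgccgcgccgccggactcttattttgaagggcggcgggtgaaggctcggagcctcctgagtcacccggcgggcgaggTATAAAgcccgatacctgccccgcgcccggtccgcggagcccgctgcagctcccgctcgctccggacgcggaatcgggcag

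Both strands of the 9 windows were searched for the CArG box, the CArG-like box, TATAAA, the E-box CANNTG and the octamer ATGCAAAT. The CArG-like box was added after the windows had been seen. Among all 35116 windows of the same length, 1.29% held a CArG box, 6.94% a CArG-like box, 11.5% TATAAA, 68.7% CANNTG and 1.77% ATGCAAAT. Of the 9 windows of these genes, 1 held a CArG box, 2 a CArG-like box, 2 TATAAA, 6 CANNTG and 0 ATGCAAAT. A match describes the letters in a window and not a site in use, and the marked boxes did not overlap each other.

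**Figure D2:**
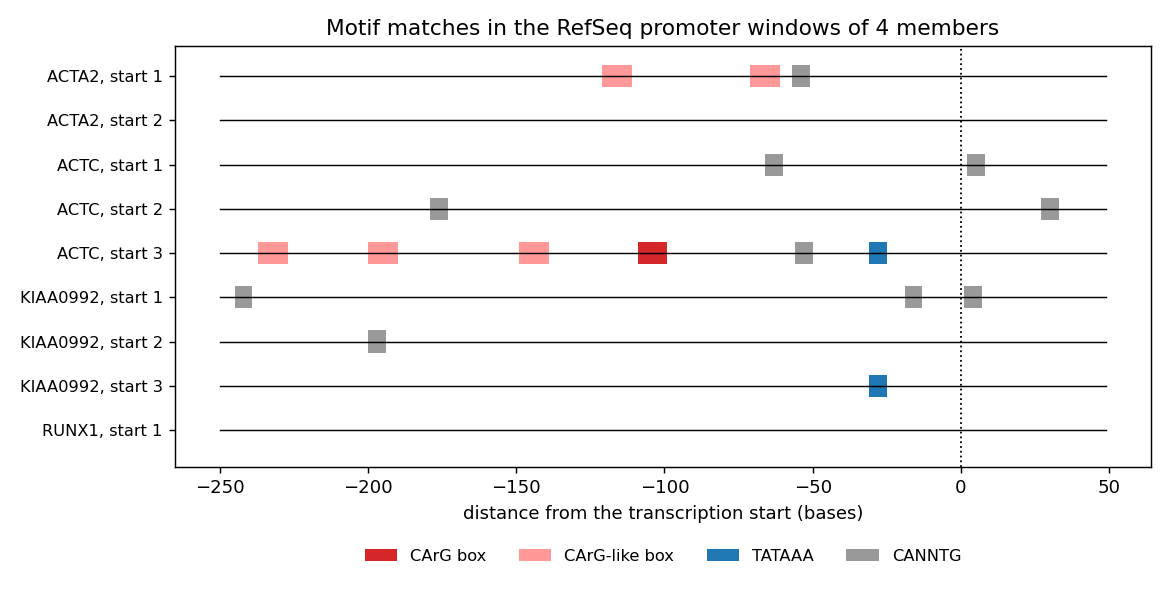
Motif matches in the 9 RefSeq windows of ACTA2, ACTC, KIAA0992 and RUNX1, each a line along the horizontal axis of distance from the transcription start in bases. Coloured blocks are matches to the CArG box, the CArG-like box, TATAAA and CANNTG; the ACTC window with the CArG box holds 3 CArG-like boxes as well, and ACTA2 start 1 holds 2.

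COL1A1, the major chain of type I collagen in bone, skin and tendon, was not detected on any mock or NANOG knock-down array. Its signals were 25.7, 24.3 and 26.0 in mock and 29.4, 22.0 and 35.1 with NANOG silenced. The OCT4 knock-down arrays read 94.5, 87.7 and 94.2 and the SOX2 knock-down arrays 104, 133 and 115. Mock and NANOG overlapped, and each SOX2 array was above each OCT4 array. COL1A1 rose at least 2.40-fold with OCT4 silenced (adjusted p = 4.95e-07) and at least 3.04-fold with SOX2 silenced (adjusted p = 1.05e-07), or at least 1.73-fold and 2.07-fold with 50 added.

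COL2A1, the fibrillar collagen of cartilage, had signals of 25.4, 36.2 and 44.0 in mock and 38.2, 38.3 and 25.8 in the NANOG knock-down, with 1 mock array and no NANOG array detecting it. It read 215.5, 213.5 and 224 in the OCT4 knock-down and 195.5, 212.6 and 203 in the SOX2 knock-down. The lowest OCT4 array was just above the highest SOX2 array, and both groups stood clear of mock and NANOG, which overlapped. COL2A1 rose at least 5.20-fold with OCT4 silenced (adjusted p = 1.91e-07) and at least 4.86-fold with SOX2 silenced (adjusted p = 2.53e-07), or at least 3.31-fold and 3.13-fold with 50 added.

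RUNX1, the blood-forming transcription factor, was not detected on any mock or NANOG knock-down array, with signals of 23.9, 20.3 and 24.8 and of 21.6, 22.7 and 21.0. It read 126, 159 and 143 in the OCT4 knock-down and 135, 146 and 145 in the SOX2 knock-down. The SOX2 values lay inside the range of the OCT4 values. RUNX1 rose at least 3.71-fold with OCT4 silenced (adjusted p = 6.3e-10) and at least 3.70-fold with SOX2 silenced (adjusted p = 6.23e-10), or at least 2.42-fold in both with 50 added.

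With dim groups at their bounds, the median log2 change of the 7 genes against mock was 2.63 with OCT4 silenced and 2.58 with SOX2 silenced, beside -0.034 and -0.042 over all tested probes. With NANOG silenced, the fitted median of the 7 genes was 0.16 beside 0.005 over all tested probes, with 5 of the 7 dim in both groups; the other 2, which are the 2 called, had a median of 0.94. Ranked from the highest change among the 10290 probes detected on all arrays of both groups, TAGLN was number 2 and KIAA0992 number 4 with OCT4 silenced. With SOX2 silenced they were number 2 and number 5 of 10101, and with NANOG silenced number 135 and number 99 of 10197.

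**Figure D3:**
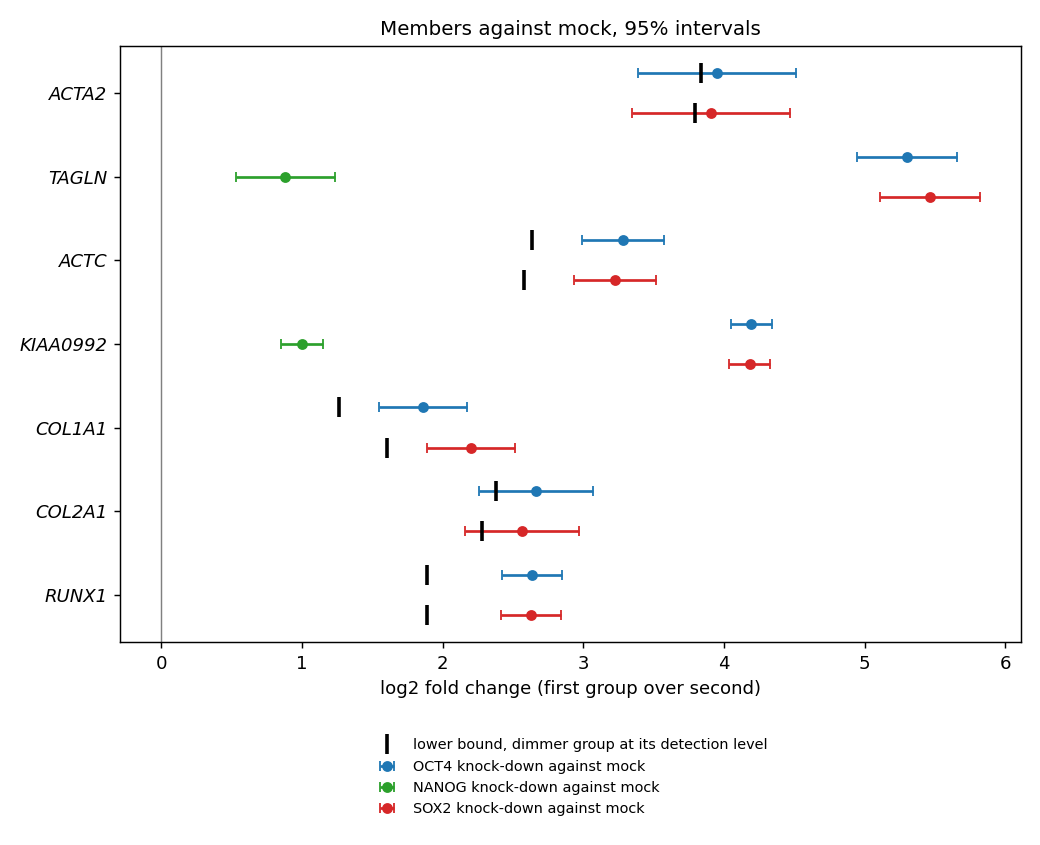
Log2 fold change against mock (horizontal axis) for each gene (vertical axis), with points for the fitted value and bars for its 95% interval, for each of the 3 factors silenced. Black ticks are lower bounds where mock was dim; the 2 NANOG points, TAGLN at 0.88 and KIAA0992 at 1.003, lie far to the left of the same genes' OCT4 and SOX2 points.

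The knock-downs were then set against each other directly, which tests whether the responses differed. OCT4 knock-down against NANOG knock-down called 7 of 7 genes up, where 11% of tested probes were called up, and SOX2 knock-down against NANOG knock-down called 7 of 7 up, where 10.9% were. TAGLN was 21.4-fold higher with OCT4 than with NANOG silenced (95% interval 16.7 to 27.3, adjusted p = 8.48e-10) and 23.9-fold higher with SOX2 than with NANOG silenced (18.7 to 30.6, adjusted p = 6.03e-10). KIAA0992 was 9.14-fold (8.25 to 10.1, adjusted p = 2.53e-11) and 9.06-fold higher (8.18 to 10.0, adjusted p = 2.14e-11). With 50 added these were 17.0-fold and 19.0-fold for TAGLN and 8.51-fold and 8.43-fold for KIAA0992. These changes placed TAGLN at number 3 and KIAA0992 at number 19 of 10647 ranked probes with OCT4, and at number 3 and number 20 of 10350 with SOX2.

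For the 5 genes that were dim in the NANOG knock-down the difference is a bound. ACTA2, which 1 of 3 NANOG arrays detected, was at least 12.7-fold higher with OCT4 silenced (adjusted p = 1.03e-07) and at least 12.35-fold higher with SOX2 silenced (adjusted p = 1.09e-07). ACTC, with 0 of 3 detected, was at least 5.87-fold and at least 5.66-fold higher. For the collagens, also at 0 of 3, the bounds were 2.27-fold and 2.88-fold for COL1A1 and 5.36-fold and 5.02-fold for COL2A1. RUNX1, at 0 of 3, was at least 3.50-fold higher in both. The adjusted p of these 8 differences in ACTC, COL1A1, COL2A1 and RUNX1 was at most 1.36e-06. With 50 added, the bounds with OCT4 and SOX2 silenced were 7.68-fold and 7.47-fold for ACTA2, 3.65-fold and 3.53-fold for ACTC, 1.69-fold and 2.02-fold for COL1A1, 3.37-fold and 3.19-fold for COL2A1 and 2.36-fold in both for RUNX1.

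Between the SOX2 and OCT4 knock-downs, 0 of the 7 genes were called in either direction, where 0% of the tested probes were called up and 0% down by limma. At an unadjusted p under 0.05 there were 1215 probes, and the methods' t-test called 2 up and 18 down, of which 1 down was left after Benjamini-Hochberg adjustment. The paper required an Illumina custom model beside its t-test. That model was not run here, so these are not counts by the paper's full criterion. All 7 genes were detected on all 6 arrays. KIAA0992 differed by -0.01 on the log2 scale (95% interval -0.16 to 0.13) and RUNX1 by -0.001 (-0.21 to 0.21). ACTC differed by -0.05 (-0.34 to 0.24), ACTA2 by -0.04 (-0.61 to 0.52), COL2A1 by -0.10 (-0.50 to 0.31) and TAGLN by 0.16 (-0.19 to 0.52). COL1A1 was 1.27-fold higher with SOX2 silenced (95% interval 1.02 to 1.58), with no overlap of the arrays, but did not pass the test over all probes (unadjusted p = 0.0357, adjusted p = 0.493). The intervals of ACTA2 and COL1A1 pass the 1.5-fold threshold and those of COL2A1 and TAGLN come close to it, so a difference of about that size could have gone unseen in these genes.

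**Figure D4:**
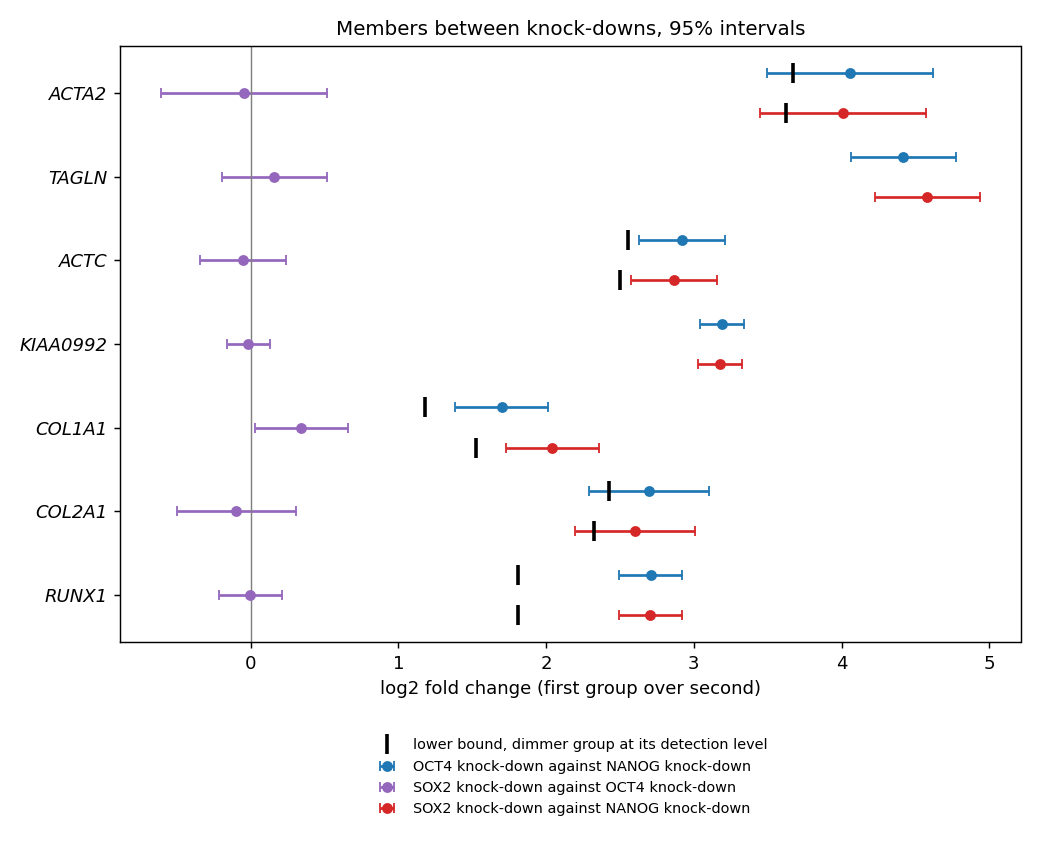
Log2 fold change between knock-downs (horizontal axis) for each gene (vertical axis), with points for the fitted value, bars for its 95% interval and black ticks for lower bounds where the NANOG knock-down was dim. The SOX2 against OCT4 points lie between -0.10 and 0.34, while both comparisons with the NANOG knock-down lie well to the right of 0.

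Because the arrays differed in brightness, the same fits were made with median scaling in place of quantile normalisation. That scaling shifted the median log2 change of all tested probes to 0.54 for OCT4 against mock, 0.18 for NANOG against mock, 0.18 for SOX2 against mock, -0.36 for SOX2 against OCT4, 0.35 for OCT4 against NANOG and 0.008 for SOX2 against NANOG. The share of calls that were up went from 56.1% to 94.7% for OCT4 against mock, from 53.5% to 82.5% for NANOG, from 56.1% to 81.2% for SOX2, from 56.2% to 90.8% for OCT4 against NANOG and from 55% to 63.9% for SOX2 against NANOG. SOX2 against OCT4 then had 1 call up and 735 down, 0.136% up. The calls of the 7 genes were the same in number in all 6 comparisons. Relative to the shifted median, TAGLN changed by 5.36, 0.87 and 5.49 on the log2 scale with OCT4, NANOG and SOX2 silenced, and KIAA0992 by 4.28, 1.085 and 4.25. In SOX2 against OCT4 the 7 genes lay between -0.14 and 0.34 relative to that median, while TAGLN and COL1A1 changed sign, to -0.23 and -0.02, where that median was not subtracted.

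The names in the label were set beside defining markers of each cell type, as a description and not a test. Of 6 smooth muscle markers, 3 had a named probe here, ACTA2, TAGLN and the contractile regulator CNN1, and the number detected on every array was 1 in mock, 3 with OCT4, 1 with NANOG and 3 with SOX2 silenced. Of 5 cardiac markers, ACTC was the 1 with a named probe, so cardiac muscle cells are not called from it. Both named cartilage markers, COL2A1 and SOX9, and both named fibroblast markers, COL1A1 and COL3A1, were detected on every array of the OCT4 and SOX2 knock-downs and on every array of neither mock nor the NANOG knock-down. RUNX1 was the 1 named marker of 3 for blood. Named probes came only from genes that the study had called changed, so a marker that stayed flat in every knock-down could not be counted. ACTA2, TAGLN, ACTC, COL1A1, COL2A1 and RUNX1 are also among the genes described here and cannot check their own label. For these reasons the counts cannot decide whether the names hold. The markers not named were not analysed here, and no cell type is assigned to the cultures.

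Related genes were counted in lists. A probe other than the 7 was named through a listing of probes that the study itself had called changed, held here in shortened form and used for names only, so the counts that follow are not independent evidence of a direction, and no share of a whole list can be given. Medians are of log2 changes against mock with dim groups at their bounds, to be read beside -0.034, 0.005 and -0.042 over all tested probes with OCT4, NANOG and SOX2 silenced. A probe that was dim in both groups, or whose bound crossed 0, has no value in such a median, and the fitted median over all probes of a list is added where it is more than 0.3 away. In the same order, 46.5%, 15% and 45.3% of the 2985 named probes were called up and 33.4%, 11.9% and 31.3% down, beside 12.9%, 4.29% and 12.6% up and 10.1%, 3.73% and 9.82% down of all tested probes. Calls rest on the fitted change, so a called probe with a dim group can have a bound under 1.5-fold.

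Among 11 probes of smooth muscle contractile genes, which include ACTA2 and TAGLN, 10 were called up with OCT4 silenced, 2 with NANOG silenced and 11 with SOX2 silenced, and none down. Their medians were 2.08, 0.26 over the 7 with a value, and 2.10. CRYAB, a small heat shock protein of muscle, rose at least 12.3-fold and at least 13.6-fold with OCT4 and SOX2 silenced, and CNN1, the smooth muscle calponin, at least 6.997-fold and 7.60-fold, with no mock array detecting either. ACTG2, the gamma actin of enteric smooth muscle, was the other gene called beside TAGLN with NANOG silenced, at 1.88-fold (adjusted p = 1.78e-05). Of 7 probes of other actins and the calponin family, ACTC and CNN1 among them, 6, 1 and 7 were called up with OCT4, NANOG and SOX2 silenced and none down, with medians of 1.74, 0.30 over 5 with a value, and 1.94. TAGLN2, the close relative of TAGLN, rose 3.34-fold and 3.83-fold with OCT4 and SOX2 silenced.

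Of 6 cardiac muscle probes, ACTC among them, 6, 2 and 6 were called up and none down, with medians of 2.92, 1.38 over 2 with a value, and 2.77 (fitted 3.24, 0.39 and 3.09 over all 6). NPPB, the natriuretic peptide of heart muscle, was not detected in mock and rose at least 48.4-fold and at least 53.4-fold with OCT4 and SOX2 silenced. MEF2C, a transcription factor of muscle, rose 14.1-fold and 15.8-fold, and HAND1, a factor of heart and lateral mesoderm, 9.21-fold and 7.79-fold. These last were also the 2 called with NANOG silenced, at 1.84-fold and 3.67-fold, where ACTC was dim.

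Of 8 probes of palladin relatives and actin-bundling partners, KIAA0992 included, 7 were called up with OCT4 and 7 with SOX2 silenced, none down, with medians of 1.12 and 1.16. With NANOG silenced 2 were up and 1 down, with a median of 0.16. PDLIM1, a PDZ and LIM domain protein that binds alpha-actinin, rose at least 20.4-fold and 20.75-fold over a mock group in which 2 of 3 arrays detected it, and ACTN4, an alpha-actinin, 2.34-fold and 2.44-fold. SORBS2, an adaptor of the actin cytoskeleton, was 2.00-fold lower with NANOG silenced, opposite to KIAA0992. For cofactors and known targets of SRF, which was itself not analysed here, 5 of 7 probes were up and 1 down with OCT4 silenced, 1 up and 2 down with NANOG silenced, and 5 up and 1 down with SOX2 silenced, with medians of 0.67, -0.076 over 5 with a value, and 0.71 (fitted 1.29, 0.23 and 1.42 over all 7, so the NANOG median turns sign). The secreted matrix protein gene CCN2 rose 6.68-fold and 7.20-fold with OCT4 and SOX2 silenced and 1.60-fold with NANOG silenced, while the immediate early gene FOS fell by 0.90, 1.46 and 0.76 on the log2 scale with OCT4, NANOG and SOX2 silenced. Its calls with OCT4 and SOX2 silenced were lost under median scaling. That scaling moved the median log2 change of all tested probes to 0.54 and 0.18 in these comparisons. The change of FOS relative to the shifted median is not given here.

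Of 6 fibrillar collagen probes, COL1A1 and COL2A1 among them, 6, 2 and 6 were called up and none down, with medians of 2.53, 0.35 over 3 with a value, and 2.39. COL11A1, a minor fibrillar chain of cartilage, was not detected in mock and rose at least 37.5-fold and at least 41.3-fold with OCT4 and SOX2 silenced, and COL5A1, which sits in type I fibrils, 6.37-fold and 5.68-fold. With NANOG silenced COL5A1 rose 1.80-fold while COL1A1 and COL2A1 were dim. The 14 probes of other collagens had 9 up and 1 down with OCT4 silenced, 9 up and 1 down with NANOG silenced, and 10 up and 2 down with SOX2 silenced, with medians of 1.14, 0.82 over 13 with a value, and 1.18. COL4A1, a basement membrane chain, rose 8.38-fold and 9.75-fold with OCT4 and SOX2 silenced, and COL18A1 was highest among them with NANOG silenced at 2.72-fold. COL9A1, whose 2 probes rose 2.09-fold and 1.88-fold with NANOG silenced, had 1 probe called down with OCT4 silenced and both with SOX2 silenced, calls that were lost under median scaling and with the larger constant.

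Of 6 cartilage and bone probes, COL2A1 among them, 6, 1 and 6 were called up and none down, with medians of 1.87, 0.32 over 3 with a value, and 2.28 over 5 with a value. The last count of 6 includes DLX5, a factor of bone formation, which was dim in both groups there and whose bound with OCT4 silenced was 1.205-fold. SOX9, the transcription factor that drives COL2A1 in cartilage, was not detected in mock and rose at least 5.76-fold with OCT4 silenced and at least 5.93-fold with SOX2 silenced, and HAPLN1, a cartilage link protein also not detected in mock, at least 6.897-fold and 5.32-fold. Of 5 probes of RUNX factors and partners, RUNX1 included, 5, 3 and 5 were called up and none down, with medians of 1.40, 0.75 over 4 with a value, and 1.24. RUNX3, the relative of RUNX1 in nerve and gut, was not detected in mock and rose at least 3.60-fold and at least 4.61-fold with OCT4 and SOX2 silenced, and at least 1.62-fold with NANOG silenced, where RUNX1 was dim.

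**Figure D5:**
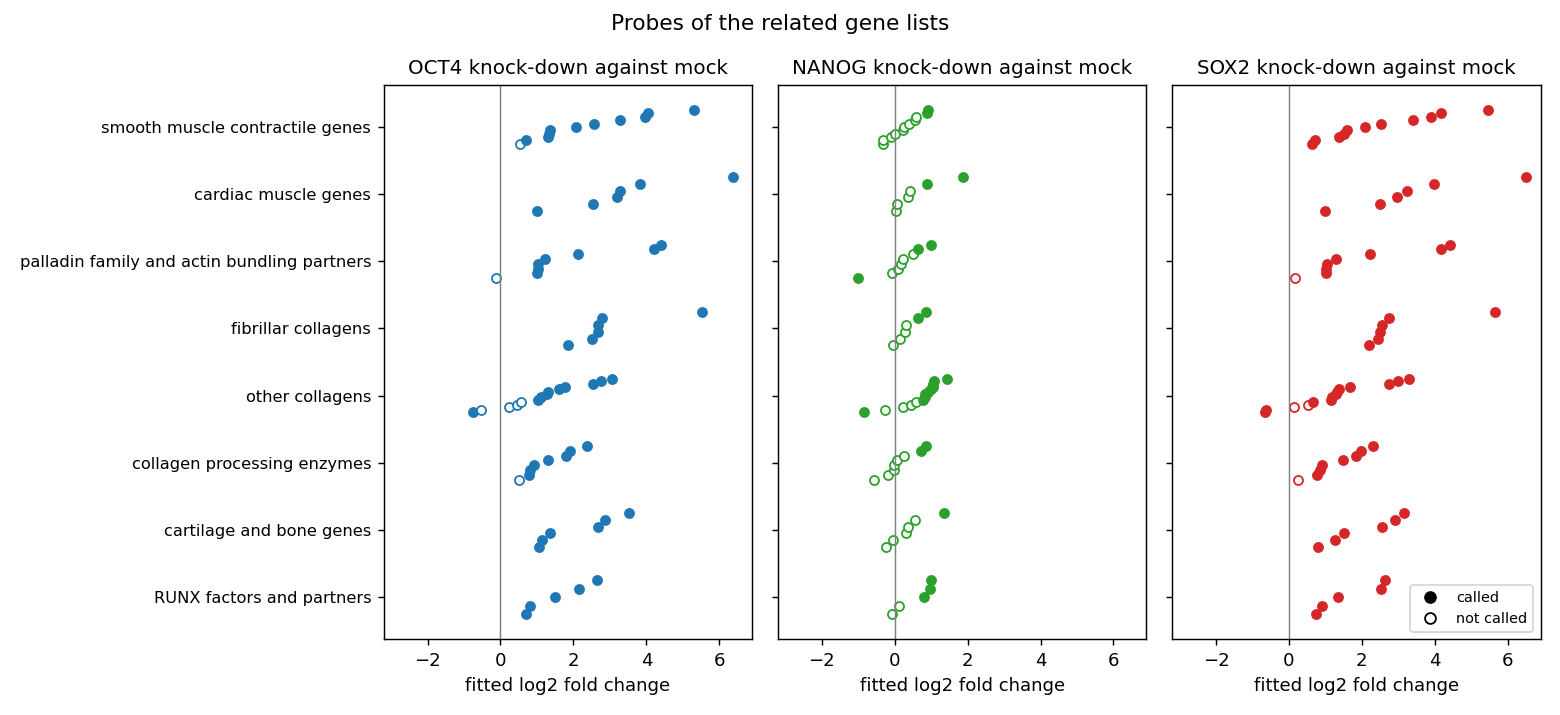
Fitted log2 fold change against mock (horizontal axis) of each named probe in 8 lists (vertical axis), 1 panel for each knock-down, with filled points called and open points not called. Points of the OCT4 and SOX2 panels lie mostly to the right of 0, and those of the NANOG panel lie closer to 0; the probes were named from a listing of changed genes.

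Markers of other cell types that a differentiating culture could hold were counted as well, and their part in the results was not tested. Of 5 blood and endothelial probes, RUNX1 among them, 4 were up and 1 down with OCT4 silenced, 0 up and 1 down with NANOG silenced, and 4 up and 1 down with SOX2 silenced, with medians of 0.73, -0.356 over 2 with a value, and 0.92 (fitted 1.455, 0.061 and 1.49 over all 5, so the NANOG median turns sign). Their summed normalised intensity was 237.5 to 259.8 in mock, 435 to 482 with OCT4, 206 to 249 with NANOG and 446 to 469 with SOX2 silenced. VWF, the endothelial clotting factor, was not detected in mock and rose at least 2.32-fold and 1.94-fold with OCT4 and SOX2 silenced, while MYB, a factor of immature blood cells, fell by 1.32 and 0.95 on the log2 scale. Of the other germ layers, CXCR4 was the endoderm probe with a name and rose 5.37-fold and 6.04-fold with OCT4 and SOX2 silenced. The trophoblast probe GATA3 was called up with OCT4 silenced at 1.55-fold, was not called with SOX2 silenced at 1.39-fold, and was called down with NANOG silenced, with a log2 change of -0.65. With the larger constant both of its calls were lost, and under median scaling it was called with SOX2 and not with NANOG silenced. With NANOG silenced, CXCR4 was detected on 2 of 3 arrays and was at least 1.59-fold lower.

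The 2 ectoderm probes had 2, 1 and 1 called up with OCT4, NANOG and SOX2 silenced and none down, with medians of 0.81 and 0.47 for OCT4 and SOX2 and no value for NANOG (fitted 1.23, 0.32 and 0.89). The NANOG call was of MAP2, a neuronal microtubule protein, which was dim in both groups, and is no evidence of a rise. They summed to 57.9 to 92.6 in mock, 157 to 186, 78.2 to 96.1 and 123 to 134. Of 14 fibroblast and mesenchyme probes, 13 were up and 1 down with OCT4 silenced, 1 up and 3 down with NANOG silenced, and 13 up and 1 down with SOX2 silenced, with medians of 1.36, 0.004 over 7 with a value, and 1.40. The 1 up with NANOG silenced was 1 of the 3 probes of the matrix gene FBLN1 and was dim in both groups, while the other FBLN1 probes were not called. The 3 down were the matrix gene TNC, at least 4.93-fold lower and not detected with NANOG silenced, the fibroblast surface marker THY1 (-1.82) and the matrix gene FN1 (-0.745). THY1 was also the 1 called down with OCT4 silenced (-2.50) and with SOX2 silenced (-2.75), opposite to COL1A1. It is not a marker of fibroblasts alone, as the paper also lists THY1 as enriched in human embryonic stem cells over a reference RNA. In mock its mean was 9.44 on the log2 scale. The 14 fibroblast and mesenchyme probes summed to 8252 to 8600 in mock, 20980 to 21750 with OCT4, 8951 to 9701 with NANOG and 22080 to 22720 with SOX2 silenced. Such a sum follows its brightest probes, in mock SPARC and 1 of the 3 FBLN1 probes (means of 12.2 and 10.7 on the log2 scale). The 11 smooth muscle probes summed to 2090 to 2209, 9444 to 10160, 2541 to 2773 and 9900 to 10620. Genes of undifferentiated hEC cells went the other way, with 12 of 12 probes down for OCT4, 9 for NANOG and 11 for SOX2, none up, where 1328, 492 and 1294 of the 13179 tested probes were called down, and with medians of -2.48, -1.14 and -2.66. These 12 include the probes of the silenced genes POU5F1 and NANOG. Their sum was 28310 to 29570 in mock, 5584 to 6546 with OCT4, 18760 to 19800 with NANOG and 5374 to 5934 with SOX2 silenced.

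For each of the 7 genes, the named genes whose log2 values over the 12 arrays followed it most closely were taken, at most 3 of them, by Pearson's r among 1363 candidates. The arrays fall into a bright and a dim set for these genes, so r near 1 was common and is a description with no test. ACTA2 was followed by KANK4 (r = 0.996), MYOZ1 (0.996) and DACT1 (0.992), and TAGLN by ACTN4 (0.999) and SLC12A7 (0.998). ACTC was followed by NPPB, SLC12A7 and IRX3, each at 0.998. KIAA0992 was followed by WLS (0.999), CGNL1 (0.998) and CCN2 (0.998). COL1A1 was followed by UBL3 (0.995), TMEM106C (0.992) and CCN1 (0.992), and COL2A1 by RND3 (0.993), MGC16121 (0.993) and ISL1 (0.992). RUNX1 was followed by CRIM1 (0.997), RAI14 (0.996) and MXRA8 (0.996).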

How the data were processed

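Gene expression was measured in NCCIT hEC cells on 12 arrays, 3 for each of mock, OCT4, NANOG and SOX2 knock-down. The raw array files that the authors deposited hold an intensity for each probe, summarised by the scanner software with no normalisation, and a detection score, which per the labels and values rises towards 1 for probes above background. Per the submitters' processing notes and methods, BeadStudio 1.0 was used; the authors' separate table of group mean intensity, after background subtraction and rank-invariant normalisation, was used only as an alternative. Its scale was found by setting each column against the arrays. From the raw values, background was corrected by normexp with a background read from the detection scores, 16 was added, and arrays were quantile normalised and log2 transformed (limma 3.58.1 in R 4.3.3). The 13179 probes of 47293 with a score above 0.99 on at least 3 arrays were tested with lmFit and eBayes over 4 group means and adjusted by Benjamini-Hochberg over all tested probes. Genes and lists were chosen with earlier results of these data known. Named were the 7 genes, the targets, from each list at most the 4 genes per direction with the largest change called with OCT4 and with SOX2 silenced plus at most 3 called with NANOG silenced, and at most 3 genes most like each of the 7 (SD of at least 0.5); not all of these are printed, and 1 gene most like TAGLN is not reported here. For genes other than the 7, 2985 probes were named through the study's listing of changed probes, 2481 of them by RefSeq accession, and its values were not used. RefSeq promoter windows of GRCh38.p14 were found for 4 of the 7 genes. Alternatives were the replicate number as a block, a floor of 20, median scaling, an offset of 50, other filters, fits of only the groups compared, the methods' t-test without the Illumina custom model that the paper also required, the deposited means and leaving out each array. Slide was not used here.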

Additional observations from a re-analysis of the deposited data

How the results depend on the processing

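The calls of 7 of 7 genes in OCT4 and SOX2 knock-down against mock and in both comparisons with the NANOG knock-down were the same in number under every alternative with a test and with each of the 12 arrays left out; the authors' means allow no test and are blank in mock and the NANOG knock-down for the 5 dim genes. The comparisons with the NANOG knock-down, the list counts, the folds by normalisation and the CArG-like box were added to the alternatives after seeing the data. In NANOG knock-down against mock, 1 gene in place of 2 was called when only the groups compared were fitted, by the methods' t-test and after its Benjamini-Hochberg adjustment: TAGLN kept its log2 change of 0.88 but missed the threshold, while it held with each array left out (highest adjusted p = 0.00902). The sizes of the changes moved with the normalisation: for ACTC with OCT4 silenced the bound of 6.21-fold became 3.74-fold with the larger offset, 8.65-fold with the floor and 8.75-fold with median scaling, and TAGLN went from 39.4-fold to 26.65-fold, 50.3-fold and 59.8-fold. On the fitted log2 scale the larger offset gave lower changes for each of the 7 genes with OCT4 and with SOX2 silenced against mock. Counts of calls over all probes moved as well. Median scaling gave 6040 up and 341 down for OCT4 against mock, 1150 and 244 for NANOG, 2721 and 631 for SOX2, 3855 and 391 for OCT4 against NANOG, and 1 and 735 for SOX2 against OCT4. In that last comparison TAGLN (-0.23) and COL1A1 (-0.0215) changed sign, where the median log2 change of all tested probes was -0.36. Relative to that median they were at 0.12 and 0.34. The larger offset gave 326 up and 289 down for NANOG against mock, 750 down for OCT4 against NANOG and 758 down for SOX2 against NANOG. After Benjamini-Hochberg adjustment the methods' t-test gave 110 up and 124 down for NANOG against mock, 1101 up for SOX2 against mock, 753 for the calls down, OCT4 knock-down against NANOG knock-down, and 923 up and 664 down for SOX2 against NANOG. For SOX2 against OCT4 it gave 2 up and 18 down, and 1 down after adjustment, and fitting only the groups compared gave 1 down. In the authors' mean values TAGLN changed by 5.74, 1.13 and 5.98 on the log2 scale against mock with OCT4, NANOG and SOX2 silenced, and KIAA0992 by 1.13 and 4.40 with NANOG and SOX2 silenced and by 0.078 in SOX2 against OCT4. There the log2 fold change of KIAA0992, OCT4 knock-down against mock, was 4.32, and the log2 fold change of KIAA0992, SOX2 knock-down against NANOG knock-down, was 3.27. The cause was not tested for any of these. With arrays left out in turn, SOX2 against OCT4 had 0 to 1 calls down, the 1 appearing without mock replicate 2, and near-zero changes crossed 0, KIAA0992 from -0.068 to 0.022 and RUNX1 from -0.086 to 0.078. Of 2268 list counts recomputed, 2176 stayed within 1.5 times, 92 moved by more and 4 gained a call from 0. Beyond the changes given above for FOS, COL9A1 and GATA3, the counts that moved are not listed here. The arrays share only replicate numbers, which did not pair them (r of deviations from -0.268 to 0.277, over 0.1 in 4 of 18 same-numbered pairs); with the replicate number as a block the calls up, OCT4 knock-down against mock, were 1692 in place of 1698, the calls up, NANOG knock-down against mock, were 549 in place of 565, and no call of the 7 genes changed. A slide or chip block was not run, as the files used here do not name it. Signal over background limits the 5 genes that were dim in mock to bounds.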

Other observations

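Among 7 early mesoderm probes, 6 were called up with OCT4 silenced, 1 up and 1 down with NANOG silenced and 6 up with SOX2 silenced, with median log2 changes of 1.75, 0.30 over the 5 with a value, and 1.66 (fitted 2.17, 0.44 and 2.07 over all 7). FOXC1, a factor of paraxial mesoderm, detected on 2 of 3 mock arrays, rose at least 7.70-fold and at least 8.38-fold with OCT4 and SOX2 silenced. MSX2, a homeobox factor, fell by 0.65 on the log2 scale with NANOG silenced. With OCT4 and SOX2 silenced it was 1.40-fold and 1.37-fold higher (adjusted p = 0.00395 and 0.00552, limma), which is short of the 1.5-fold threshold and not called. Under median scaling all 7 early mesoderm probes were called up with OCT4 silenced. The skeletal actin ACTA1, the 1 named probe of the skeletal muscle list, rose 3.59-fold and 3.87-fold with OCT4 and SOX2 silenced and was not called with NANOG silenced, with a log2 change of -0.40 at its bound. Among 8 probes of collagen processing enzymes, 7, 2 and 7 were called up with OCT4, NANOG and SOX2 silenced and none down, with medians of 0.87, 0.019 over 6 with a value, and 0.92. LOXL1, which crosslinks matrix fibres, rose 5.20-fold and 4.96-fold with OCT4 and SOX2 silenced. PCOLCE2, an enhancer of procollagen cleavage, was called up with NANOG silenced, at 1.825-fold. With OCT4 silenced PCOLCE2 was 1.41-fold higher (adjusted p = 0.00014, limma), short of the 1.5-fold threshold, and with SOX2 silenced 1.18-fold higher (adjusted p = 0.0178). Under median scaling all 8 probes of this list were called up with OCT4 silenced. These probes too were named from a listing of changed genes, so the counts are not independent evidence.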
